A study of Mus musculus with 68 samples.

Results

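The genes described here encode glycosyltransferases and sulfotransferases of the Golgi apparatus and the linked O-mannosylation pathway, 51 in all, of which 50 were measured among 13197 named genes in the founder strains and 12803 in the F1 crosses. Galnt2 was on the list and in neither set of libraries. The genes were chosen by their annotated enzyme function with the tunicamycin contrasts of these libraries already in view, so every tunicamycin value of a listed gene below is a description and carries no test. The level in control cells was not used in the choice and is tested.

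The data are RNA sequencing libraries of mouse embryonic fibroblasts (MEFs), made to ask how genetic background changes the transcriptional response to ER stress. MEFs came from the 8 founder strains of the Collaborative Cross, which are 129S1Sv/ImJ (129), A/J (A), C57BL/6J (B6), CAST/EiJ (CAST), NOD/ShiLtJ (NOD), NZO/H1LtJ (NZO), PWK/PhJ (PWK) and WSB/EiJ (WSB), and from 5 F1 crosses of a B6 mother with a 129, CAST, NOD, NZO or WSB father (x129, xCAST, xNOD, xNZO and xWSB). Each genotype was exposed for 4 h to 2 ug/ml tunicamycin (TM), which blocks the first step of N-linked glycosylation in the ER, or to 0.1% DMSO as control. There were 18 control and 22 TM libraries in the founders and 14 of each in the F1 crosses, 2 or 3 for each genotype and treatment. The cells of a genotype were a pool of several female embryos of 1 litter, so strain and cell preparation cannot be told apart, and the spread between libraries is that between parallel treatments of the same pool. The labels name no engineered allele in any genotype.

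Glycans that leave the ER are rebuilt in the Golgi, where membrane-bound transferases add single sugars or sulfate from nucleotide sugars and PAPS, the sulfate donor. N-glycans are branched, galactosylated and capped with sialic acid there. Proteoglycan cores receive a linkage tetrasaccharide that is extended into chondroitin, dermatan or heparan sulfate, and sulfotransferases then set the charge pattern by which these chains bind growth factors. Fibroblasts secrete much matrix proteoglycan, whose chondroitin, dermatan and heparan sulfate chains are built on xylose and not on the N-glycan precursor that TM blocks.

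A stretch upstream of the start, free of annotated exons and at most 150 bases long, is given here to set parts of promoters side by side. It is shown for 5 members that were lower after TM (Pomgnt2, Mgat5, Chst1, Chst12 and B4galt5) and 2 that were higher (Glce and Mgat2). The stretch ends 60 bases before the start in Chst12, 47 in Glce, 20 in Pomgnt2 and 6 or fewer in the rest. Matches outside the stretch are not printed, such as GGGCGG at -21 and -4 in Chst12 and CCAAT in Pomgnt2. The bases are from RefSeq (GRCm38.p6), 5′ to 3′ on the gene's strand, with matches in capitals to CCAAT, to GGGCGG (the Sp1 motif) and to CCACG, on either strand. The Pomgnt2 and Chst1 windows lie within the annotated span of the gene, upstream of the RefSeq start. Pomgnt2 is at chr9:121996046-121996117 (minus strand), Mgat5 at chr1:127204836-127204985 (plus), Chst1 at chr2:92600967-92601116 (plus), Chst12 at chr5:140505400-140505549 (plus), B4galt5 at chr2:167349184-167349333 (minus), Glce at chr9:62122656-62122805 (minus) and Mgat2 at chr12:69184084-69184156 (plus). Chsy1, at chr7:66109342-66109491 (plus), is added as the only member with the Golgi stress element ACGTGGC, which reads GCCACGT on the printed strand and overlaps a CCACG match.
Pomgnt2: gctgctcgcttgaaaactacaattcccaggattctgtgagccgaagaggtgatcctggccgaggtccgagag
Mgat5: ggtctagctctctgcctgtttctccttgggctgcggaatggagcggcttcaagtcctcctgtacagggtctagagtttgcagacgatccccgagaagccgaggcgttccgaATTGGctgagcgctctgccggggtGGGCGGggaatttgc
Chst1: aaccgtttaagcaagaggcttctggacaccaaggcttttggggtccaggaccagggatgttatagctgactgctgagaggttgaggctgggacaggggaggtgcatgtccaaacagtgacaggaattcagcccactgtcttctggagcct
Chst12: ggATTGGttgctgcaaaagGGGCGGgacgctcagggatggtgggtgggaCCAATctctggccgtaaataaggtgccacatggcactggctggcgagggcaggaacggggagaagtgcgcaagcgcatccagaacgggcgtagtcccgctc
B4galt5: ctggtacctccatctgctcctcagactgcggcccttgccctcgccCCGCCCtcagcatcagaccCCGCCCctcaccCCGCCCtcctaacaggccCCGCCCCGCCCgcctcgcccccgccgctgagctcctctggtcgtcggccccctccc
Glce: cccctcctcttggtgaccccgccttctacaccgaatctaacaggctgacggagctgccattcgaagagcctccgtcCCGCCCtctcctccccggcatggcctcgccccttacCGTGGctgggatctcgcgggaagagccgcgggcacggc
Mgat2: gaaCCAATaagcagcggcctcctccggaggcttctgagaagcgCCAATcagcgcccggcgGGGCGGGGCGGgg
Chsy1: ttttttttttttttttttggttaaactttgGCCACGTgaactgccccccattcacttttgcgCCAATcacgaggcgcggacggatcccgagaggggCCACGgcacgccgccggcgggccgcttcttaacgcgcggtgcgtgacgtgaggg

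Motifs were counted on both strands in windows from 250 bases before to 50 after the start, which were at hand for 40 of the 51 members. The Golgi stress element ACGTGGC was in the windows of 1 member (2.50%) and of 4.57% of all measured genes. The unfolded protein response element TGACGTGG, the ER stress element (CCAAT, 9 bases, CCACG) and the amino acid response element TGATGNAAT were in 0 members, against 1.07%, 0.18% and 0.55% of measured genes. CCAAT was in 16 members (40%) and 42.83% of measured genes, and CCACG, which lies within the longer elements, in 24 members (60%) and 52.15%. GGGCGG was in 33 members (82.5%) and 68.87% of measured genes. Among the members called lower below, 17 of the 22 with a window held GGGCGG and 7 held CCAAT, and all 3 of the called-higher members with a window held GGGCGG. These are letter matches in a fixed window and say nothing of factor binding. Members without a window were Xylt1, B4galt6, St3gal1, Extl3, Galnt1, Csgalnact1, St3gal2, Mgat4b, Galnt2, Ndst1 and Ext1.

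Values are reads on a gene relative to the scaled library size and are called scaled reads here. They are not divided by transcript length, so levels are compared between libraries and never between genes. Reads on genes ran from 7091923 to 21530282 per founder library and from 6442976 to 29528457 per F1 library, and the founder controls (median 14072068) were deeper than the founder TM libraries (median 10730220). Whole reads were not recovered for the PWK TM replicate 2 and WSB TM replicate 1 libraries. The founder depths thus cover 38 of 40 libraries, and the TM median 20 of 22. All 8 unfolded protein response genes checked rose in both sets, with a median log2 change of 2.85 in the founders and 2.77 in the F1 crosses. The 8 fibroblast markers summed to between 16917 and 54672 scaled reads in each founder library, and their median log2 change with TM was -0.36. At an adjusted p of 0.01 in limma, 4 of 8 were called lower, against 21.9% of all genes. In the F1 crosses the median log2 change of these markers was -0.21, and 3 of 8 were called lower (18.7% of all genes). Myeloid markers summed to between 8.24 and 64.6 in founder controls and between 7.24 and 52.9 after TM, with median sums of 29.4 and 17.1. Of the 8 myeloid markers 3 were called lower, against 21.9% of all genes (median log2 change -0.48). In the F1 crosses the median sums of the 4 myeloid markers measured were 11.1 in controls and 6.53 after TM. Of these 4, 2 were called lower, against 18.7% of all genes (median log2 change -0.56). Endothelial markers summed to at most 19.9, epithelial markers to at most 28.3 and muscle and neural markers to at most 167 in any founder library. In the F1 libraries these sums reached 19.0, 14.4 (2 epithelial markers measured, against 3 in the founders) and 338. No marker list was at 0 in all libraries, and the part of other cells in the values below was not tested. In these bulk libraries fewer cells of a type and less RNA per cell cannot be told apart.

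Libraries also differed in the level of genes with long transcripts relative to that of genes with short ones. Length is that of the longest annotated transcript of a gene, and the cause of this difference was not tested. The difference between the median log2 value of the longest 10% of transcripts (at least 6999 bases) and that of the shortest 10% (at most 1529 bases), members left out, is called the long-transcript index here and was chosen after values were seen. The TM mean minus the control mean of this index was -0.747 in WSB and -0.865 in xNOD, and was above 0 in CAST (0.477), NZO (0.429) and NOD (0.345), all on the log2 scale. The A TM replicate 2 library (-0.856), the 129 TM replicate 1 library (-0.69) and the A control replicate 1 library (-0.397) were the lowest of their groups. Several members whose values moved with this index are given below with and without it.

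Most of the listed genes were lower after TM. Averaged over the 8 founder strains, 40 of 50 members had a log2 change below 0 (80%, against 54.6% of all genes), and the median member changed by -0.28 (quartiles -0.58 and -0.11), against -0.04 (quartiles -0.25 and 0.19) for all genes. With the dependence of log2 change on GC content and length removed, these medians were -0.18 and -0.06. At a Benjamini-Hochberg adjusted p of 0.01 in limma, 29 members were called lower and 4 higher, where 21.9% and 20.5% of all genes were called in those directions. With a change of at least 1.5 fold required as well, 12 members were lower and 1, Glce, was higher, against 5.41% and 6.04% of all genes. In the 5 F1 crosses 43 of 50 members were below 0 with a median of -0.25, 28 were called lower (18.7% of all genes) and 3 higher (16.9%). At 1.5 fold the F1 counts were 12 lower (5.54% of genes) and 0 higher (4.95%). At an unadjusted p under 0.05, in either direction, there were 40 members in the F1 crosses (54.6% of all genes) and 41 in the founders (59.1%). The contrasts had served to choose the genes, so nothing is read from these counts. Of the 50 members, 26 were below 0 in all 13 genotypes (15.5% of all genes were) and 3, Glce, Csgalnact2 and Mgat2, were above 0 in all 13 (14.2%).

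**Figure D1:**
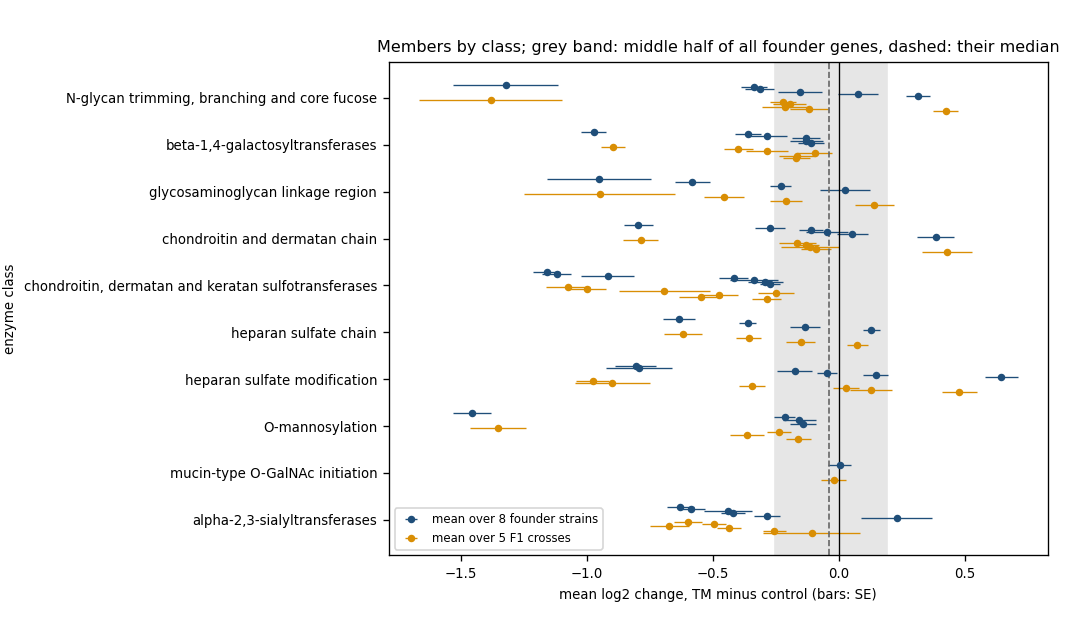
Mean log2 change (TM minus control, x axis; bars show SE) of each of the 50 members, arranged by enzyme class (y axis), over 8 founder strains in blue and 5 F1 crosses in orange; the grey band spans the quartiles of all founder genes (-0.25 to 0.19) and the dashed line their median (-0.04). The 7 chondroitin, dermatan and keratan sulfotransferases all sit below 0, and Glce is the point farthest to the right.

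Separation of the libraries within each genotype was counted as well, again as a description. In 12 members every TM library lay below every control library in each of the 8 strains (B4galt5, Chpf2, Chst1, Chst12, Chst14, Ext2, Extl3, Mgat5, Pomgnt2, St3gal2, St3gal4 and Xylt2), where 2.99% of all genes did so. Glce was the 1 member with every TM library above every control library in each strain (4.12% of genes). In the F1 crosses 11 members were separated downward in each cross (3.32%; B4galt2, B4galt5, Chpf2, Chst1, Chst12, Ndst2, Pomgnt2, St3gal1, St3gal2, St3gal3 and St3gal4) and 1, Mgat2, upward (4.53%).

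Within single genotypes, where 2 or 3 libraries stood on each side and both an adjusted p of 0.01 and 1.5 fold were needed, counts of members called lower ran from 0 to 14, beside the shares of all genes given with each. B6 had 14 members lower (3.22% of its genes), WSB 11 (4.20%), PWK 10 (4.30%), CAST 4 (0.478%) and NOD 4 (0.165%). In CAST and in NOD the 4 were B4galt5, Chst1, Chst12 and Pomgnt2. No member was called in 129 (0.00787%), A (0.00786%) or NZO (0.00780%). The members' median in these 3 strains was -0.28, -0.32 and -0.32, against -0.01, -0.04 and -0.03 for all genes. Among the crosses xNOD had 11 (4.60%), xCAST 7 (1.2%), x129 6 (1.36%), xNZO 2 (0.152%) and xWSB 0 (0.0161%). Called lower in at least 1 founder strain were 16 members (7.85% of genes) and higher 0 (8.15%); 1 member was called higher once the NZO TM replicate 3 library was left out. In at least 1 cross 13 were lower (5.47%) and 1, Glce, was higher in x129 and xNZO (7.05%); the 13 fell to 8 when any 1 of the 3 xNOD control libraries was left out, and Glce was joined by another member without the x129 TM replicate 3 or xCAST TM replicate 3 library. Without the intensity trend in the fit, the 16 became 8 in the founders and the 13 became 5 in the F1 crosses. Shares of all genes were not counted without the trend or with libraries left out. The members' median lay between -0.22 and -0.35 in every genotype, and that of all genes between -0.06 and 0.01. These medians too are a description of contrasts that were in view when the genes were chosen.

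**Figure D2:**
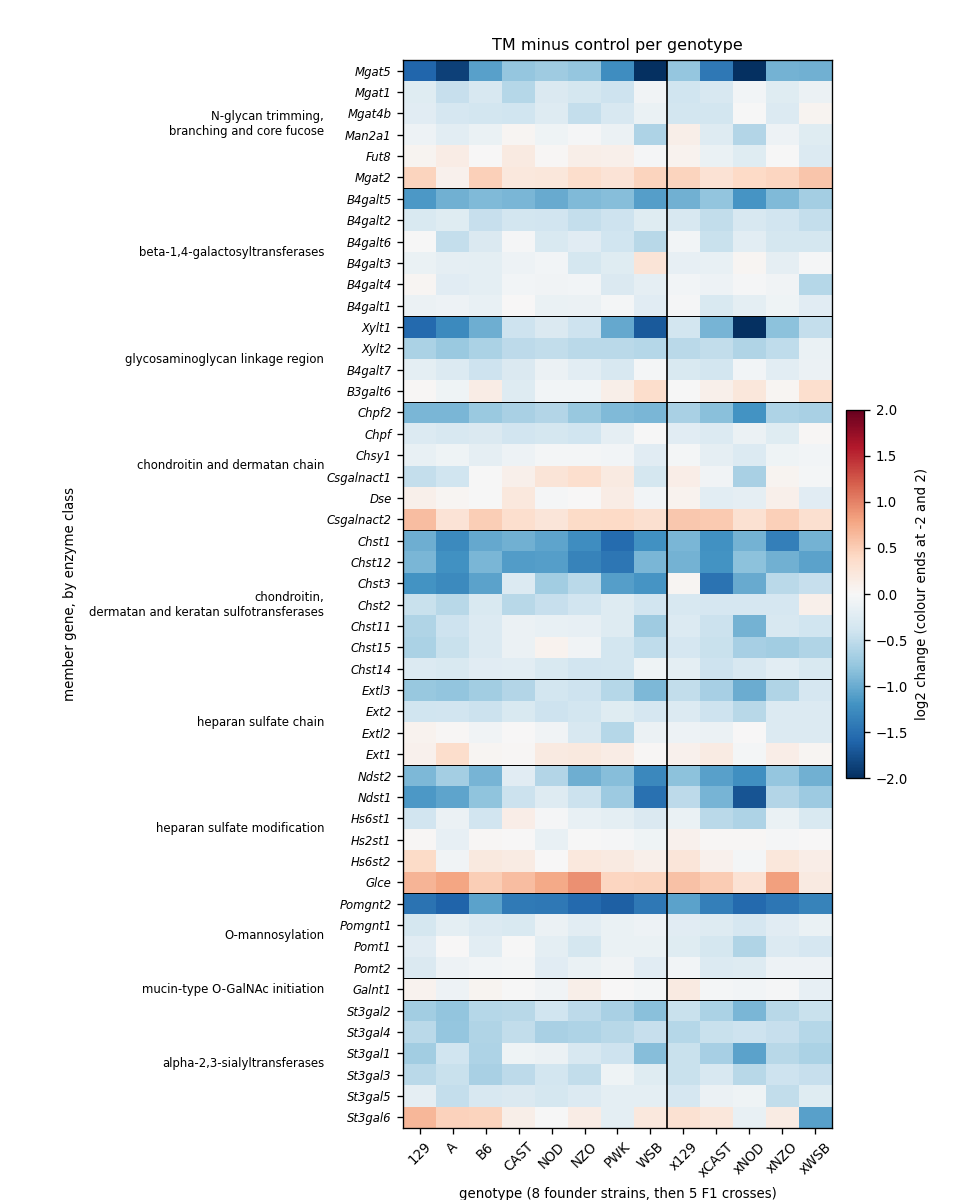
Log2 change (TM minus control, colour from -2 in blue to 2 in red) of the 50 members (rows, by enzyme class) in 8 founder strains and 5 F1 crosses (columns). Rows such as Pomgnt2, Chst1 and Chst12 are blue in all 13 columns, and Mgat5, Xylt1 and Ndst1 are deepest in WSB and xNOD.

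The O-mannosylation enzymes, which start and extend the glycans of alpha-dystroglycan, held the member with the largest founder change. Pomgnt2, an ER-resident transferase that adds GlcNAc to O-mannose, fell to 36.5% of control. Pomgnt2 scaled reads in founder control libraries were 14.9 and 15.2 in 129, 8.26, 10.1 and 10.9 in A, 9.80 and 11.1 in B6, 8.29 and 10.7 in CAST, 9.75 and 10.3 in NOD, 11.3 and 12.3 in NZO, 11.9, 10.1 and 9.95 in PWK and 13.5 and 11.03 in WSB. Pomgnt2 scaled reads in founder TM libraries were 4.38, 5.91 and 5.81 in 129, 2.26, 4.18 and 3.21 in A, 4.62 and 5.23 in B6, 3.41 and 3.57 in CAST, 3.74, 4.56 and 2.86 in NOD, 4.19, 4.16 and 3.54 in NZO, 3.78, 3.83 and 2.57 in PWK and 4.32, 4.32 and 4.72 in WSB. The groups did not overlap in any strain, and every TM library of every strain was below the lowest control library of all strains. The log2 change of Pomgnt2 was -1.45 ± 0.08 (SE, 40 libraries) in the founders, between -1.64 and -1.07 by strain, and -1.35 ± 0.11 (28 libraries) in the F1 crosses. Pomgnt2 in the F1 libraries ran from 7.28 to 15.6 scaled reads in controls (median 9.17) and from 2.75 to 6.30 after TM (median 3.39). The initiating mannosyltransferases Pomt1 and Pomt2 and the Golgi enzyme Pomgnt1 changed far less, with founder log2 changes of -0.16 ± 0.07, -0.14 ± 0.05 and -0.21 ± 0.04. Of the 4 genes 2 were called lower in the founders (21.9% of all genes) and 4 in the F1 crosses (18.7%).

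The sulfotransferases of chondroitin, dermatan and keratan sulfate were the one class with all members called lower in both sets, 7 of 7, where 21.9% of all founder genes and 18.7% of all F1 genes were called lower, with a median log2 change of -0.42 in the founders and -0.55 in the F1 crosses. Chst1, which sulfates galactose in keratan sulfate, fell to 44.8% of control. Chst1 scaled reads in founder control libraries were 31.2 and 28.9 in 129, 19.2, 18.96 and 18.3 in A, 30.3 and 35.4 in B6, 19.9 and 21.3 in CAST, 23.6 and 22.95 in NOD, 37.6 and 38.9 in NZO, 27.3, 21.8 and 23.3 in PWK and 35.7 and 24.3 in WSB. Chst1 scaled reads in founder TM libraries were 14.5, 16.7 and 14.6 in 129, 7.59, 7.003 and 8.70 in A, 15.9 and 16.3 in B6, 9.58 and 11.7 in CAST, 12.1, 11.3 and 10.3 in NOD, 15.9, 15.8 and 16.5 in NZO, 8.13, 9.37 and 7.34 in PWK and 11.1, 14.9 and 12.1 in WSB. The groups were apart in every strain, with NZO the highest and A the lowest by mean control level. Chst1 had a log2 change of -1.16 ± 0.05 in the founders and -1.07 ± 0.09 in the F1 crosses. Chst1 scaled reads in F1 control libraries were 15, 12.3 and 13.6 in x129, 23.6 and 24.1 in xCAST, 20.9, 21.1 and 27.2 in xNOD, 17.9, 19.6 and 37.7 in xNZO and 58.8, 51.5 and 45.3 in xWSB. Chst1 scaled reads in F1 TM libraries were 7.01, 7.04 and 7.42 in x129, 10.8, 9.54 and 10.5 in xCAST, 13.6 and 10.4 in xNOD, 9.40, 8.82 and 9.18 in xNZO and 29.5, 25.1 and 25.96 in xWSB. The xWSB libraries stood highest in both treatments, with TM values above the controls of x129, and the groups were apart within every cross.

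Chst12, a chondroitin sulfotransferase acting on GalNAc, was lower to a similar extent. Chst12 scaled reads in founder control libraries were 95.5 and 82.6 in 129, 63.1, 57.9 and 57.9 in A, 70.95 and 73.9 in B6, 58.01 and 53.05 in CAST, 75 and 83.6 in NOD, 71.5 and 71.9 in NZO, 65.3, 58.8 and 54.3 in PWK and 63.9 and 65.3 in WSB. Chst12 scaled reads in founder TM libraries were 50.3, 53.7 and 38.4 in 129, 19.1, 34.7 and 25.97 in A, 38 and 38.8 in B6, 26.4 and 24.4 in CAST, 37.8, 36.7 and 35.9 in NOD, 26.7, 27.7 and 31.1 in NZO, 21.8, 22.4 and 21.2 in PWK and 28.7, 42.3 and 32.6 in WSB. TM libraries were below controls in all strains, and the log2 change of Chst12 was -1.12 ± 0.06 in the founders and -1.0 ± 0.08 in the F1 crosses. Chst12 in the F1 libraries ran from 41.5 to 104 scaled reads in controls (median 72.9) and from 16.6 to 50.99 after TM (median 36.7). Of the other members of this class, Chst3 had the largest founder log2 change (-0.92 ± 0.11) at low level, from 0.621 to 5.06 scaled reads in controls, and overlapped in CAST. Chst2 changed by -0.42 ± 0.06, Chst11 by -0.34 ± 0.09 and Chst14, the dermatan sulfotransferase, by -0.27 ± 0.04. Chst15, which adds a further sulfate to sulfated GalNAc, is taken up with the control levels.

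N-glycan branching enzymes moved in opposite directions. Mgat5, which starts the branch that galectins bind through its poly-LacNAc, was lower. Mgat5 scaled reads in founder control libraries were 20.6 and 29.2 in 129, 18.1, 30.8 and 34.2 in A, 16.7 and 17.9 in B6, 10.6 and 17.9 in CAST, 8.08 and 19.2 in NOD, 27.1 and 26.7 in NZO, 18.01, 19.6 and 22.1 in PWK and 24.6 and 21.9 in WSB. Mgat5 scaled reads in founder TM libraries were 4.38, 7.04 and 16.97 in 129, 15.2, 1.67 and 14.7 in A, 9.34 and 7.01 in B6, 8.09 and 7.95 in CAST, 7.48, 7.75 and 7.55 in NOD, 16.2, 21.8 and 10.8 in NZO, 4.45, 11.1 and 11.7 in PWK and 3.12, 4.69 and 4.18 in WSB. The libraries of each group spread widely, from 1.67 to 15.2 among the A TM libraries alone, though TM and control did not overlap in any strain. The founder log2 change of Mgat5 was -1.32 ± 0.21, from -2.53 in WSB to -0.71 in NOD, and that of the F1 crosses -1.38 ± 0.29. Mgat5 in the F1 libraries ran from 3.53 to 23.5 scaled reads in controls (median 14.4) and from 0.611 to 10.8 after TM (median 7.22). In the F1 crosses the groups overlapped in 3 of 5.

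Mgat2, which adds the second antenna and so makes a complex N-glycan, was higher. Mgat2 scaled reads in founder control libraries were 93.7 and 101 in 129, 180.2, 125 and 120.1 in A, 119 and 107 in B6, 130.1 and 114 in CAST, 124 and 106 in NOD, 112 and 102 in NZO, 136, 131 and 130.3 in PWK and 125 and 125 in WSB. Mgat2 scaled reads in founder TM libraries were 143, 135 and 120.2 in 129, 149, 144 and 149.8 in A, 168 and 146 in B6, 149 and 133 in CAST, 142, 126 and 135 in NOD, 134, 137 and 138 in NZO, 175, 157 and 150.5 in PWK and 194, 173 and 146 in WSB. Only in A did the groups overlap, through 1 control library at 180.2. Mgat2 had a log2 change of 0.31 ± 0.05 in the founders and 0.42 ± 0.05 in the F1 crosses. Mgat2 in the F1 libraries ran from 71.3 to 97.7 scaled reads in controls (median 83.1) and from 92.8 to 143 after TM (median 115). The groups were apart in each of the 5 crosses. Of the other N-glycan enzymes in the founders, Mgat1 had a log2 change of -0.34 ± 0.05, Mgat4b of -0.31 ± 0.06, Man2a1, the Golgi mannosidase, of -0.15 ± 0.09, and Fut8, the core fucosyltransferase, of 0.08 ± 0.08.

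Among the galactosyltransferases of the B4galt family B4galt5, a lactosylceramide synthase, had the largest change. B4galt5 scaled reads in founder control libraries were 99.2 and 104 in 129, 101, 140.3 and 145 in A, 101 and 94.2 in B6, 104 and 119.7 in CAST, 81.7 and 103 in NOD, 114 and 121 in NZO, 96.7, 91.3 and 90.9 in PWK and 106 and 109 in WSB. B4galt5 scaled reads in founder TM libraries were 38.3, 46.3 and 53.4 in 129, 73.98, 59.9 and 63.7 in A, 52.6 and 53.01 in B6, 62.2 and 56.99 in CAST, 44.5, 49.7 and 42.4 in NOD, 67.5, 65.3 and 57.7 in NZO, 47.9, 52.9 and 53.1 in PWK and 48.7, 50.8 and 49.9 in WSB. The groups were separate in all 8 strains. B4galt5 had a log2 change of -0.97 ± 0.05 in the founders, with strain values between -1.16 and -0.86, and -0.90 ± 0.05 in the F1 crosses. B4galt5 in the F1 libraries ran from 66.6 to 136 scaled reads in controls (median 97.4) and from 32.6 to 84.4 after TM (median 51.01). B4galt2 changed by -0.36 ± 0.05 and B4galt6, the other lactosylceramide synthase, by -0.28 ± 0.08, while B4galt1, B4galt3 and B4galt4 lay between -0.13 and -0.11.

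**Figure D3:**
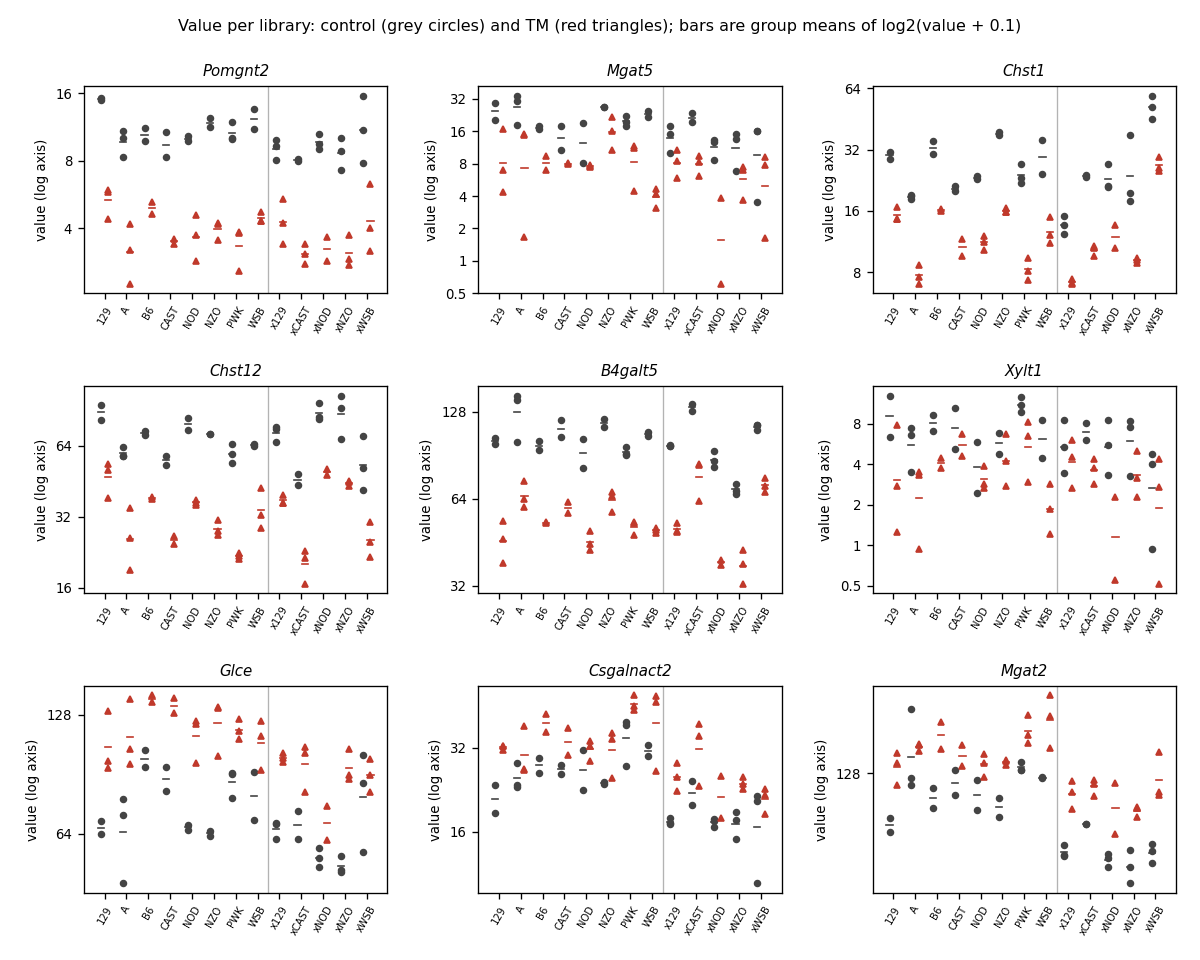
Scaled reads per library (y axis, log scale) of 9 members in 8 founder strains and 5 F1 crosses (x axis), controls as grey circles and TM as red triangles; bars are group means of log2(value + 0.1). Triangles lie below circles for Pomgnt2, Chst1, Chst12 and B4galt5 in every genotype, the Mgat5 and Xylt1 points scatter widely within groups, and Glce triangles lie above circles in every founder strain.

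Chondroitin, dermatan and heparan sulfate chains start with xylose, added by Xylt1 or Xylt2. Xylt1 was low in level and scattered. Xylt1 scaled reads in founder control libraries were 6.37 and 12.9 in 129, 3.501, 6.56 and 7.43 in A, 9.25 and 7.09 in B6, 5.23 and 10.5 in CAST, 2.44 and 5.87 in NOD, 4.77 and 6.88 in NZO, 12.7, 11.01 and 9.71 in PWK and 4.47 and 8.53 in WSB. Xylt1 scaled reads in founder TM libraries were 1.25, 2.77 and 7.89 in 129, 3.49, 0.941 and 3.33 in A, 4.43 and 3.77 in B6, 4.58 and 6.69 in CAST, 2.68, 3.88 and 2.86 in NOD, 4.19, 6.65 and 2.76 in NZO, 2.93, 6.45 and 8.19 in PWK and 1.21, 2.84 and 1.87 in WSB. Groups overlapped in 129, CAST, NOD and NZO. The log2 change of Xylt1 was -0.95 ± 0.21 in the founders and -0.95 ± 0.30 in the F1 crosses, with strain values from -1.68 to -0.28. Xylt1 was not called in the F1 crosses (adjusted p 0.0121, limma), nor in the founders with the replicate number as a block (-0.88). Xylt1 in the F1 libraries ran from 0.933 to 8.55 scaled reads in controls (median 5.51) and from 0.519 to 6.06 after TM (median 3.01). Xylt2 had a smaller founder log2 change (-0.58 ± 0.07) and did not overlap in any founder strain, from 28.8 to 49.6 scaled reads in controls and from 20.7 to 43.1 after TM over all strains. The galactosyltransferases of the linkage region followed neither: B4galt7 changed by -0.23 ± 0.04 and B3galt6 by 0.03 ± 0.10.

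The chondroitin chain genes held both a raised and a lowered member. Csgalnact2, which adds the first GalNAc of the chain, was higher. Csgalnact2 scaled reads in founder control libraries were 18.7 and 23.5 in 129, 23.2, 28.2 and 23.5 in A, 29.4 and 26.03 in B6, 27.8 and 25.7 in CAST, 31.5 and 22.6 in NOD, 23.8 and 24.2 in NZO, 27.5, 38.5 and 39.6 in PWK and 29.9 and 32.6 in WSB. Csgalnact2 scaled reads in founder TM libraries were 32.3, 31.4 and 32.4 in 129, 38.2, 26.5 and 26.8 in A, 42.1 and 36.5 in B6, 37.5 and 30.2 in CAST, 33.9, 32.5 and 28.7 in NOD, 34.5, 36.03 and 24.96 in NZO, 45.2, 49.2 and 43.5 in PWK and 46.6, 48.9 and 26.4 in WSB. TM libraries were above all controls in 5 of 8 strains and overlapped with them in the rest. Csgalnact2 had a log2 change of 0.38 ± 0.07 in the founders and 0.43 ± 0.10 in the F1 crosses, and turned to -0.01 in the founders when the dependence of log2 change on GC content and length was removed. Csgalnact2 in the F1 libraries ran from 10.5 to 24.3 scaled reads in controls (median 17.7) and from 17.9 to 38.99 after TM (median 23.5). Chpf2, a polymerizing factor, was lower (-0.80 ± 0.06 in the founders, -0.79 ± 0.07 in the F1 crosses) and separate in every genotype. Its partner Chpf changed by -0.27 ± 0.06, the synthase Chsy1 by -0.11 ± 0.05 and the dermatan epimerase Dse by 0.05 ± 0.06.

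Csgalnact1, the other initiating GalNAc transferase, had strain changes on both sides of 0. Csgalnact1 scaled reads in founder control libraries were 8.38 and 9.25 in 129, 12.5, 16.2 and 14.5 in A, 13.1 and 11.2 in B6, 31.7 and 37.5 in CAST, 10.5 and 11.6 in NOD, 21.8 and 18.9 in NZO, 23.2, 26.5 and 26.7 in PWK and 22.2 and 22.2 in WSB. Csgalnact1 scaled reads in founder TM libraries were 5.01, 5.91 and 8.41 in 129, 13.4, 6.06 and 15.4 in A, 12.5 and 11.6 in B6, 37.6 and 36.1 in CAST, 12.1, 14.3 and 13.5 in NOD, 25.7, 26.9 and 24.4 in NZO, 23.4, 30.8 and 32.8 in PWK and 16.4, 19.1 and 17 in WSB. TM libraries were above controls in NOD and NZO, below in WSB, and overlapped elsewhere. The founder mean log2 change of Csgalnact1 was -0.05 ± 0.08, with strain values from -0.48 to 0.34, and turned to 0.01 without the A TM replicate 2 library. With the long-transcript index as a covariate the mean was -0.06 ± 0.05, and the log2 change went from -0.34 to 0.00 in WSB, from 0.34 to 0.14 in NZO, from 0.26 to 0.11 in NOD and from 0.10 to -0.12 in CAST. In WSB and CAST the index did not overlap between treatments, so it cannot be told apart from TM there. Csgalnact1 in the F1 libraries ran from 8.09 to 43.02 scaled reads in controls (median 10.6) and from 4.76 to 42.04 after TM (median 11.6).

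Heparan sulfate chains are polymerized by Ext1 and Ext2 as a pair. The 2 subunits differed in direction, Ext2 with a founder log2 change of -0.36 ± 0.03 and Ext1 with 0.13 ± 0.04. Ext1 scaled reads in founder control libraries were 239.6 and 235 in 129, 188, 237 and 233 in A, 268 and 252 in B6, 219.5 and 234 in CAST, 203 and 215 in NOD, 265 and 258 in NZO, 184, 196 and 188 in PWK and 291 and 319 in WSB. Ext1 scaled reads in founder TM libraries were 222, 259.96 and 273 in 129, 285, 257 and 293 in A, 269 and 266 in B6, 225 and 236 in CAST, 227, 248 and 232 in NOD, 302, 291 and 301 in NZO, 204, 208 and 219 in PWK and 318, 307 and 307 in WSB. The change in Ext1 was small beside the differences between strains, groups were apart in 4 of 8, and in the F1 crosses its log2 change was 0.07 ± 0.04. The founder change of Ext1 was 0.05 with GC content and length removed and 0.14 with the replicate number as a block, and was not called in either. Ext1 in the F1 libraries ran from 181 to 373 scaled reads in controls (median 212) and from 175 to 389.9 after TM (median 223). Extl3, which starts the heparan chain, was lower (-0.63 ± 0.06 in the founders, -0.62 ± 0.08 in the F1 crosses) and separate in all 8 strains, and Extl2 changed by -0.13 ± 0.06.

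Heparan modification held the largest rise of the list. Glce, the epimerase that turns glucuronic into iduronic acid and so makes the chain flexible, rose to 156% of control. Glce scaled reads in founder control libraries were 63.9 and 68.9 in 129, 48.03, 78.5 and 71.4 in A, 104 and 94.4 in B6, 82.1 and 94.3 in CAST, 65.6 and 67.5 in NOD, 65.2 and 63.4 in NZO, 78.7, 91.2 and 90.9 in PWK and 69.2 and 91.5 in WSB. Glce scaled reads in founder TM libraries were 93.8, 97.97 and 130.3 in 129, 140.2, 95.8 and 105 in A, 143 and 137 in B6, 141 and 129 in CAST, 121, 123 and 96.7 in NOD, 133, 134 and 101 in NZO, 116, 125 and 111 in PWK and 123, 113 and 92.6 in WSB. Every TM library was above every control library of its own strain. The log2 change of Glce was 0.64 ± 0.07 in the founders, between 0.44 and 0.92 by strain, and 0.48 ± 0.07 in the F1 crosses. Glce scaled reads in F1 control libraries were 62.3, 67.9 and 68.04 in x129, 61.98 and 73.2 in xCAST, 55.6, 58.8 and 52.98 in xNOD, 52.1, 56.3 and 51.2 in xNZO and 57.8, 85.9 and 101 in xWSB. Glce scaled reads in F1 TM libraries were 97.3, 102 and 99.3 in x129, 102, 106 and 81.8 in xCAST, 61.8 and 75.5 in xNOD, 105, 89.9 and 87.95 in xNZO and 90.1, 98.7 and 81.7 in xWSB. Groups were apart in 4 crosses and overlapped in xWSB.

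The N-deacetylase/N-sulfotransferases, which act before the epimerase, were lower. Ndst2 changed by -0.81 ± 0.08 in the founders and -0.98 ± 0.07 in the F1 crosses. Ndst1, singled out after its values were seen, changed by -0.79 ± 0.13 and -0.90 ± 0.15. Ndst1 scaled reads in founder control libraries were 159.6 and 182 in 129, 128, 174 and 183 in A, 202 and 196 in B6, 133 and 183 in CAST, 82.7 and 141 in NOD, 189 and 170.3 in NZO, 153, 159.7 and 159 in PWK and 224 and 236 in WSB. Ndst1 scaled reads in founder TM libraries were 45.2, 75.96 and 132 in 129, 123, 32.8 and 112 in A, 119 and 109 in B6, 109 and 123 in CAST, 90.9, 91.9 and 89.5 in NOD, 144, 160.03 and 103 in NZO, 72.9, 107 and 111 in PWK and 65.6, 89.1 and 91.6 in WSB. The TM libraries of A ran from 32.8 to 123 and those of 129 from 45.2 to 132. Of the sulfotransferases that act last, Hs2st1 changed by -0.05 ± 0.04 and Hs6st1 by -0.18 ± 0.07 in the founders. Hs6st2 was among the 6 members with the highest founder mean without being called (0.15 ± 0.05), and it turned to -0.01 once GC content and length were removed. Hs6st2 scaled reads in founder control libraries were 73.2 and 73.5 in 129, 133, 126 and 126 in A, 103 and 92.98 in B6, 126 and 120.2 in CAST, 114 and 116 in NOD, 122 and 115 in NZO, 33.97, 36.2 and 35.4 in PWK and 119 and 130.00 in WSB. Hs6st2 scaled reads in founder TM libraries were 94.1, 87.3 and 108 in 129, 147, 101 and 123 in A, 115 and 111 in B6, 149 and 128 in CAST, 111, 116 and 119 in NOD, 146, 149 and 119 in NZO, 37.7, 42.1 and 39.8 in PWK and 152, 147 and 106 in WSB. PWK was lowest in both treatments. Hs6st2 in the F1 libraries ran from 47.6 to 112 scaled reads in controls (median 63.9) and from 54.8 to 102 after TM (median 75.1).

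The St3gal sialyltransferases, which cap galactose with sialic acid, were called lower in 5 of 6 in both sets, against 21.9% of all genes in the founders and 18.7% in the F1 crosses, with median log2 changes of -0.43 and -0.47. St3gal2 changed by -0.63 ± 0.05, St3gal4 by -0.58 ± 0.05 and St3gal1, which caps mucin-type O-glycans, by -0.44 ± 0.10 in the founders. St3gal3 showed the smallest unadjusted p of the members for a difference in change between strains. St3gal3 scaled reads in founder control libraries were 48.5 and 46.02 in 129, 43.1, 45.9 and 44.3 in A, 37.9 and 44.3 in B6, 32.2 and 37.2 in CAST, 35.2 and 42.9 in NOD, 49 and 52.8 in NZO, 22.9, 23.7 and 23.4 in PWK and 51.99 and 43.7 in WSB. St3gal3 scaled reads in founder TM libraries were 29.7, 38.99 and 29.3 in 129, 29.2, 37.1 and 32.2 in A, 25.1 and 26.9 in B6, 22.8 and 25.2 in CAST, 29.5, 30.9 and 29.97 in NOD, 36.8, 32.9 and 38.8 in NZO, 21.7, 22.97 and 21.4 in PWK and 34.98, 41.5 and 45.7 in WSB. The log2 change of St3gal3 was -0.42 ± 0.05, with strain values from -0.65 to -0.08; groups overlapped in PWK, whose controls were lowest, and in WSB, and were apart in the other 6 strains. St3gal3 in the F1 libraries ran from 32.1 to 53.4 scaled reads in controls (median 36.98) and from 23.6 to 34.8 after TM (median 27.7).

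St3gal6 was the exception of its class. St3gal6 scaled reads in founder control libraries were 8.21 and 9.58 in 129, 4.40, 10.6 and 10.9 in A, 8.10 and 8.31 in B6, 0.570 and 0.659 in CAST, 11.8 and 8.96 in NOD, 3.87 and 3.02 in NZO, 0.621, 0.870 and 0.647 in PWK and 9.55 and 8.68 in WSB. St3gal6 scaled reads in founder TM libraries were 10.6, 16.7 and 15.9 in 129, 11.9, 15.9 and 7.16 in A, 10.6 and 11.9 in B6, 0.745 and 0.603 in CAST, 11.2, 11.7 and 8.01 in NOD, 4.47, 5.91 and 2.07 in NZO, 0.946, 0.302 and 0.734 in PWK and 13.97, 11.2 and 7.48 in WSB. Levels in CAST and PWK were below 1 in all libraries, and the other strains lay above 2. The log2 change of St3gal6 was 0.23 ± 0.14 in the founders and -0.11 ± 0.19 in the F1 crosses. St3gal6 scaled reads in F1 control libraries were 4.45, 4.74 and 4.60 in x129, 0.174 and 0.553 in xCAST, 3.38, 3.88 and 3.73 in xNOD, 6.67, 5.14 and 7.05 in xNZO and 0.933, 0.550 and 1.25 in xWSB. St3gal6 scaled reads in F1 TM libraries were 5.39, 6.60 and 5.24 in x129, 0.615, 0.624 and 0.133 in xCAST, 3.85 and 2.79 in xNOD, 8.38, 6.29 and 6.48 in xNZO and 0.779, 0.339 and 0.150 in xWSB. The xCAST and xWSB libraries were low in both treatments, although WSB itself stood at 8.68 and 9.55 in the founder controls and B6 at 8.10 and 8.31. Galnt1, which starts mucin-type O-glycans, had founder and F1 log2 changes of 0.00 ± 0.04 and -0.02 ± 0.05, and the founder controls ran from 94.6 to 165 scaled reads against 88.0 to 162 after TM.

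No member was called as differing in its TM change between genotypes. The limma interaction test called 0 members and 0.174% of all genes in the founders, and 0 members and 0.0547% in the F1 crosses. At an unadjusted p under 0.05 there were 0 members in the founders (3.91% of all genes) and 3 in the F1 crosses (6.15%). edgeR on the recovered reads of 66 libraries, added after values were seen, also called 0 and 0, with 0 (3.6% of genes) and 3 (7.22%) unadjusted. The 3 members with the smallest unadjusted p in the founders were St3gal3, Csgalnact1 and Chst1, all with an adjusted p tied at 1. The contrast had served to choose the genes and a p that misses the threshold does not show equal change. Direction of the mean change was shared by founders and F1 crosses in 45 of 50 members (90.0%) and in 85.6% of all genes.

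The spread of Mgat5, Xylt1 and Ndst1 within groups followed the long-transcript index. Their transcripts are 8436, 9020 and 6478 bases long, against a median of 4038 for the members and 3456 for all genes. Over the 40 founder libraries the deviations of Mgat5 and Ndst1 from their group means had a Pearson r of 0.97, those of Mgat5 and Xylt1 0.86, and those with the index 0.89 for Mgat5, 0.85 for Xylt1 and 0.91 for Ndst1. Man2a1 (6991 bases) and Chst11 (5527 bases) behaved likewise, each with an r of 0.94. Other long members followed the index less, such as Ext1 (7663 bases, 0.67) and Hs2st1 (6177 bases, 0.45), and Chst2 (7328 bases) had -0.24. Some members nearer the median length, such as Chsy1 (4176 bases, 0.81), followed it closely. Mgat1 went the other way (-0.84), and Pomgnt2 (-0.06) and Chst1 (0.01) did not follow it. Over the 28 F1 libraries r was -0.46 for Pomgnt2 and 0.004 for Chst1. The points share libraries and depth, and these correlations are a description.

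With the index as a covariate, added after values were seen, the founder log2 change of Mgat5 was -1.37 ± 0.10, that of Xylt1 -0.99 ± 0.11 and that of Ndst1 -0.82 ± 0.06, with smaller SE than before. The strain range of Mgat5 narrowed from between -2.53 and -0.71 to between -1.78 and -1.03, and the WSB value went from -2.53 to -1.52. That of Xylt1 went from between -1.68 and -0.28 to between -1.28 and -0.71, and its WSB value from -1.68 to -0.74. In WSB, Man2a1 went from -0.62 to -0.19 and Chst11 from -0.71 to -0.24. The index did not overlap between treatments in WSB (controls 0.552 to 0.898, TM -0.243 to 0.206). Nor did it in xNOD (controls 0.246 to 0.442, TM -0.878 to -0.221) or CAST (controls 0.199 to 0.754, TM 0.931 to 0.978). Index and TM cannot be told apart within these genotypes, and their adjusted values rest on a slope shared by all genotypes of a set. The founder mean of Glce was 0.63 ± 0.04 and that of B4galt5 -0.98 ± 0.03 in this fit. In the F1 crosses the mean went from -1.38 to -1.11 for Mgat5, from -0.95 to -0.67 for Xylt1 and from -0.90 to -0.76 for Ndst1. The xNOD value of Mgat5 went from -2.78 to -1.41. Pomgnt2 (-1.45 ± 0.07) and Chst1 (-1.16 ± 0.05) kept their founder means, while Pomgnt2 in xNOD went from -1.55 to -1.81. The members called in this fit were 5 higher and 34 lower in the founders, where all genes came to 25.1% and 29.2%.

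**Figure D4:**
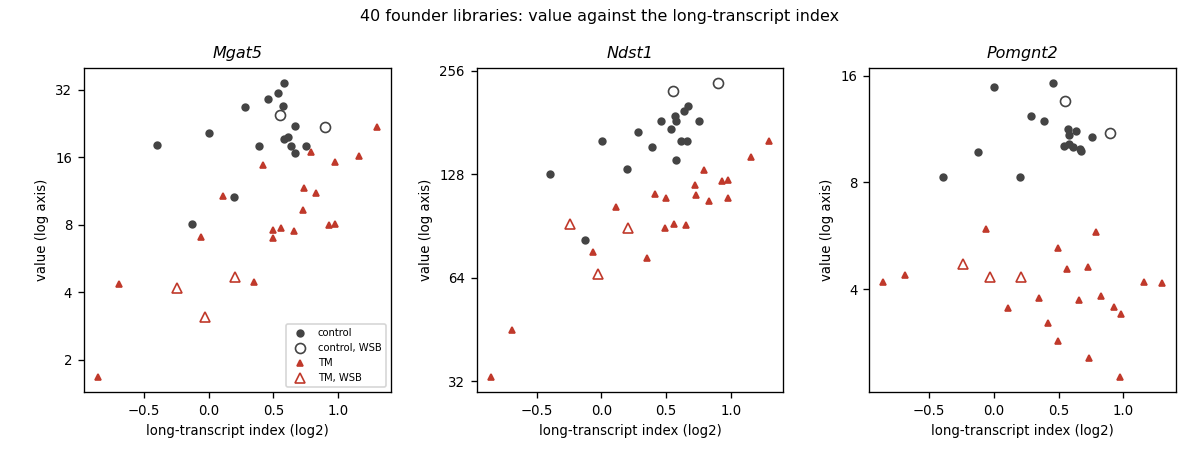
Scaled reads (y axis, log scale) of Mgat5, Ndst1 and Pomgnt2 against the long-transcript index (x axis, log2) in the 40 founder libraries, controls as grey circles and TM as red triangles, WSB as open symbols. Mgat5 and Ndst1 rise with the index within both treatments (r of deviations 0.89 and 0.91), while Pomgnt2 does not (-0.06).

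Control levels, which the choice of genes did not use, were compared among the 8 founder strains with a moderated F test in limma on the 18 control libraries. The level differed in 21 of 50 members at an adjusted p of 0.01, against 35.8% of all genes, and the median difference between the highest and lowest strain was 0.67 on the log2 scale for members and 0.82 for all genes. Without the A control replicate 1 library, the founder control lowest in the long-transcript index, the counts were 36 members and 48.1% of genes. Each strain was 1 pool of embryos, so these differences are between preparations as much as between strains.

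Hs6st2 had the smallest adjusted p (limma, 2.26e-09), with a range of 1.86 on the log2 scale between A, the highest, and PWK, the lowest, at 33.97 to 36.2 scaled reads. St3gal6 (1.18e-07, limma) had the widest range of the 5, 3.86, from NOD down to CAST and PWK, which differed from each other by less than the spread among NOD, WSB, 129, B6 and A. In the F1 crosses its control level was again low in xCAST, and also in xWSB.

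Chst15 differed between strains by 2.37 on the log2 scale (adjusted p 4.32e-07 in limma), with PWK highest and B6 lowest. Chst15 scaled reads in founder control libraries were 13.4 and 11.9 in 129, 8.80, 7.93 and 9.07 in A, 6.21 and 4.86 in B6, 7.67 and 8.32 in CAST, 6.69 and 9.96 in NOD, 7.69 and 7.47 in NZO, 30.7, 28.4 and 27.5 in PWK and 13.3 and 13.4 in WSB. Chst15 scaled reads in founder TM libraries were 6.57, 9.43 and 8.72 in 129, 7.70, 4.39 and 7.40 in A, 4.62 and 4.45 in B6, 7.03 and 7.74 in CAST, 9.49, 7.36 and 8.92 in NOD, 7.66, 7.02 and 7.08 in NZO, 19.6, 23.8 and 23.8 in PWK and 8.04, 10.9 and 9.26 in WSB. PWK TM libraries remained above the controls of every other strain. The founder log2 change of Chst15 was -0.29 ± 0.07, and was -0.16 with GC content and length removed and -0.23 with the replicate number as a block, not called in either. In the F1 crosses it was -0.55 ± 0.09. Chst15 in the F1 libraries ran from 4.03 to 8.54 scaled reads in controls (median 5.35) and from 2.92 to 4.49 after TM (median 3.63).

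St3gal5, the GM3 ganglioside synthase, differed by 2.29 (adjusted p 4.60e-07 in limma), with PWK highest and WSB lowest. St3gal5 scaled reads in founder control libraries were 43 and 40.6 in 129, 53.2, 41.6 and 40.1 in A, 33.9 and 31.2 in B6, 60.02 and 48.02 in CAST, 49 and 42.9 in NOD, 47.2 and 54.9 in NZO, 82.8, 78.5 and 70.2 in PWK and 15.3 and 16.03 in WSB. St3gal5 scaled reads in founder TM libraries were 38.3, 40.4 and 32.02 in 129, 28.7, 32.4 and 35.4 in A, 28.7 and 23.9 in B6, 44.5 and 43.4 in CAST, 39.8, 32.9 and 35.5 in NOD, 40.7, 37.6 and 49.1 in NZO, 69.6, 64.1 and 67.3 in PWK and 14.6, 12.7 and 13.9 in WSB. WSB controls were below every control of the other strains, and its TM libraries were below every TM library of the others. The founder log2 change of St3gal5 was -0.28 ± 0.05. St3gal5 in the F1 libraries ran from 20.4 to 40.1 scaled reads in controls (median 28.1) and from 17.7 to 36.8 after TM (median 21.2). Csgalnact1, the fifth of these members, had a control range of 1.96 (adjusted p 6.30e-07 in limma) from CAST, the highest, to 129, the lowest, and the F1 controls of xCAST stood at 40.2 and 43.0 against 8.09 to 12.8 in the other crosses.

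**Figure D5:**
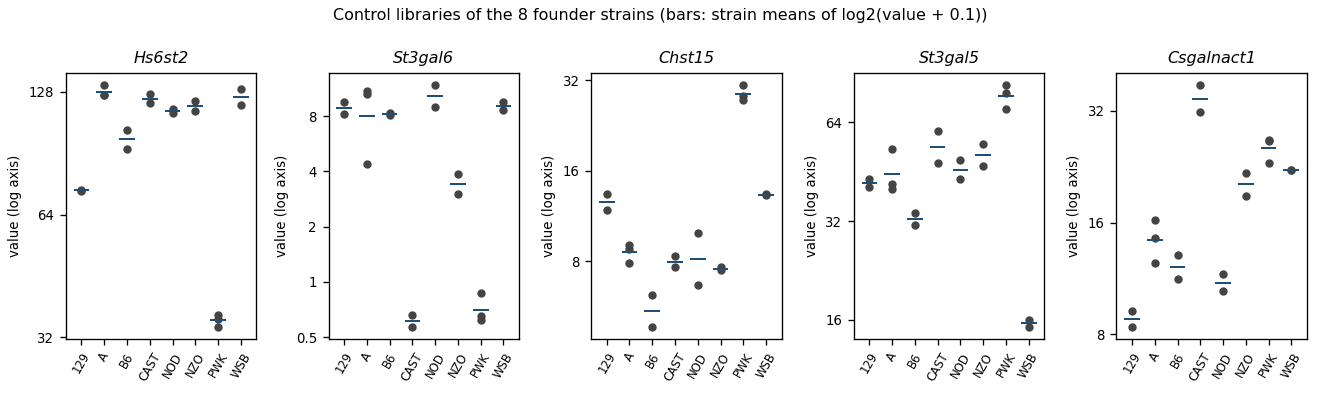
Scaled reads (y axis, log scale) of Hs6st2, St3gal6, Chst15, St3gal5 and Csgalnact1 in the 18 founder control libraries by strain (x axis), with points for libraries and bars for strain means of log2(value + 0.1). PWK is lowest for Hs6st2 and highest for Chst15 and St3gal5, and CAST is highest for Csgalnact1 and low with PWK for St3gal6.

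The steps around the Golgi were counted from lists of the same pathway, in the same limma fits with adjusted p at 0.01. All genes came to 21.9% lower and 20.5% higher in the founders and 18.7% and 16.9% in the F1 crosses. These lists too were chosen with earlier results of these data known, and the genes named are extremes of each list. Their counts and adjusted p values are a description and carry no test. Of 53 other Golgi transferases measured, 29 fell and 5 rose in the founders (median -0.30), and 24 fell and 2 rose in the F1 crosses (-0.27). Mgat3, which adds the bisecting GlcNAc, fell by 1.38 ± 0.09 (adjusted p 2.18e-13, limma) and Lfng, a Notch-modifying transferase, fell by 0.94 ± 0.06 (6.33e-14, limma). Hs3st3b1, a heparan sulfotransferase, rose by 0.96 ± 0.08 (7.30e-12, limma) and B3gat2 by 0.72 ± 0.12 (1.53e-05, limma). Of 20 proteoglycan core proteins 11 fell and 1 rose in the founders (median -0.40), and of 19 in the F1 crosses 11 fell and 0 rose. Hspg2 (perlecan) fell by 1.26 ± 0.15 (2.87e-08, limma), Prelp fell by 0.80 ± 0.13 (1.05e-05, limma), and Sdc2, a syndecan, rose by 0.27 ± 0.06 in the founders (0.000198, limma) and was not called in the F1 crosses (0.12 ± 0.06).

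Among the ER steps of the same pathway, lipid-linked oligosaccharide synthesis had 8 of 23 genes higher and 2 lower in the founders (median 0.07) and 4 higher and 1 lower in the F1 crosses. The founder values were led by Alg12 at 0.97 ± 0.06 (adjusted p 1.43e-14, limma) and Alg2 at 0.69 ± 0.11 (3.22e-06, limma), with Dpm3 at -0.39 ± 0.12 (0.00686, limma) and Dolk at -0.34 ± 0.05 (5.11e-07, limma) at the low end; Dpm3 was not called in the F1 crosses (-0.14 ± 0.12). Of 12 oligosaccharyltransferase genes 5 were higher and 1 lower in the founders (median 0.11) and 4 and 1 in the F1 crosses, with founder values of 0.67 ± 0.09 for Magt1, 0.66 ± 0.08 for Ostc and -0.52 ± 0.08 for Ost4. ER trimming and lectin genes had 5 of 11 higher and 0 lower in the founders and 3 higher and 1 lower in the F1 crosses, with founder values that put Edem1, a factor in ER-associated degradation, at 0.99 ± 0.04 and the chaperone Calr at 0.81 ± 0.05.

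Among genes for nucleotide sugars and PAPS, 8 of 26 were higher and 2 lower in the founders (median 0.02) and 8 and 1 in the F1 crosses. Founder values put Gnpnat1 of the hexosamine pathway at 1.10 ± 0.09 and Ugp2 at 0.50 ± 0.07, with Amdhd2 at -0.30 ± 0.08; Amdhd2 was not called in the F1 crosses (-0.06 ± 0.09). Of 14 transporters 2 were higher and 4 lower in each set. In the founders Slc35b1, whose product serves the ER, was at 0.97 ± 0.08 and Slc35b3, a PAPS transporter, at 0.22 ± 0.05, and Slc35c1, the GDP-fucose transporter, at -0.43 ± 0.08 and Slc35a4 at -0.42 ± 0.07. Of 15 genes for Golgi stress regulators and structure 6 were higher and 3 lower in the founders and 4 and 3 in the F1 crosses. In the founders Klf4 was at 0.82 ± 0.08 and Mitf at 0.47 ± 0.11, against Tfeb at -0.78 ± 0.09 and Gorasp1 at -0.28 ± 0.05, and Mitf was not called in the F1 crosses (0.09 ± 0.14). The members' transcripts had a median GC content of 52.48% against 49.78% for all genes and a median replicate SD of 0.18 against 0.26, and the 50 genes lie on 19 chromosomes.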

How the data were processed

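RNA sequencing libraries of MEFs from 8 founder strains (40) and 5 F1 crosses (28) were used as deposited. The submitters' processing notes name FastQC, Trimmomatic, TopHat 1.4.1, edgeR and the mouse builds GRCm38 and mm10, and the study's methods describe strain-specific genomes, TMM scaling and the removal of libraries that did not cluster with their condition. The deposited signal values are called FPKM by the authors, but they are whole multiples of 1 step per library in 66 of 68 libraries (100% of values within 0.1 of a whole read), that is reads relative to the scaled library size, not divided by length. The steps gave the depths. Founder and F1 tables were scaled apart and fitted apart.

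A gene was tested if 2 or more libraries reached a value of 0.5, with limma 3.58.1 (R 4.3.3) on log2(value + 0.1) with an intensity trend, Benjamini-Hochberg adjusted over all genes tested. Fold changes are on that scale, which understates changes of low genes. TM was compared with control over group means, within each genotype (adjusted p of 0.01 and 1.5 fold, as in the study) and for interaction; control level by a moderated F test. All tests were two-sided or F tests. The main fits were run on simulated data with a fixed spread. The interaction test was run there only without a planted difference between strains, so its power was not checked. The GC content and length fit and the block fit were not simulated. The members and all lists were chosen with earlier results of these data known. Named with values in every founder library are the 6 members with the highest and the 6 with the lowest founder mean change (mean value of at least 1), the 5 with the smallest adjusted p for control level and the 3 for change among strains, ties broken by unadjusted p; F1 values are given by range where not by library, and of each other list the 2 highest and 2 lowest called genes, of which 1 is not reported here. Columns of values not used numbered 0. F1 values on no gene (15.47% to 24.15% of a library) were left out of tests. Alternatives included edgeR 4.0.16 on recovered reads, other scaling, pseudocount and filters, GC content and length, a replicate block and each library left out. For counts of members called in at least 1 genotype, a library was left out only where its group held 3.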

Additional observations from a re-analysis of the deposited data

How the results depend on the processing

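The founder count of 4 members higher became 1 with 1.5 fold required and 2 with GC content and length removed, and the 29 lower became 12 with 1.5 fold. In the F1 crosses 3 higher became 0 and 28 lower became 12 with 1.5 fold. The founder median of -0.28 was -0.18 with GC content and length removed, where the median of all genes was -0.06; there Csgalnact2 (-0.0128) and Hs6st2 (-0.0075) changed sign, and Csgalnact1 (-0.05) did so without the A TM replicate 2 library (0.0061; range over single libraries left out -0.0773 to 0.0061). Members called higher in at least 1 founder strain went from 0 to 1 at an FDR of 5%, and ran from 0 to 1 over libraries left out. For counts in at least 1 genotype, only libraries from groups of 3 were left out, 24 in each set. B6 and CAST, with 2 libraries in each group, were not covered there. Members called lower in at least 1 genotype went from 16 to 8 in the founders and from 13 to 5 in the F1 crosses without the intensity trend; over libraries left out the F1 count ran from 8 to 16 and the F1 count higher from 1 to 2. The 21 members with a strain difference in control level became 38 with the long-transcript index as a covariate (35.8% and 52.0% of all genes), an alternative added after the data were seen, and ran from 15 to 36 over libraries left out. The cause was not tested. Shares of all genes were not counted with GC content and length removed, at an FDR of 5% or without the intensity trend. Nor were they counted with single libraries left out, except for the control level without the A control replicate 1 library. In those settings a change in the members' calls cannot be told apart from a change in the calls of all genes.

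The replicate numbers showed no steady pairing of the samples: deviations of same-numbered control and TM libraries correlated between -0.53 and 0.31. All xWSB pairs lay between 0.12 and 0.26, and all A pairs between -0.53 and -0.18. With the replicate number as a block the founder counts were 2 higher and 22 lower (11.8% and 10.8% of all genes), the F1 counts 3 and 25 (14.3% and 16.9%), and 3 members were called higher and 12 lower in at least 1 founder strain (8.92% and 6.66%); B6 and CAST could not be fitted singly with the block. Founder counts ran from 4 to 5 higher and 28 to 32 lower over libraries left out, and F1 counts from 25 to 30 lower. Another scaling moved the median of all genes by -0.01 in the founders. Members at low level, such as Chst3, Xylt1 and St3gal6 in CAST and PWK, rest on few reads.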
